A study of Mus musculus with 20 samples.

Results

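The genes described here are 34 genes of protein folding stress, measured by RNA sequencing in 20 mouse breast tumors. They were chosen by name: 23 genes belong to the unfolded protein response of the endoplasmic reticulum (ER) and 11 to the heat shock response of the cytosol. All 34 were found by their symbol among the 43346 genes of the count table, and all 34 passed the filter on low counts that left 18883 genes for testing. The question was how these genes varied from tumor to tumor, and whether the ER genes and the cytosolic genes moved together or apart.

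Each tumor came from a different female mouse of the cross [BALB/c-neuT x FVB/J] F1, bred from BALB/c males that carried the neuT transgene and wildtype FVB/J females. The oncogene neuT is an activated form of rat Her2/neu, so that all tumors shared the same driver in the same F1 cross, and there was no tumor-free tissue or untreated control. Chromosome content was altered, since the paper reports loss of chr4 and occasional changes of others, particularly chr1, chr12 and chr14. Dnaja1 lies on chr4, Atf6 on chr1, Dnajc3 on chr14 and Pdia6, Dnajb9, Sel1l and Hsp90aa1 on chr12. The part of gene dosage in their levels was not tested. Every mouse had several tumors when it was killed, 1 of which was sampled as a small frozen piece, and ages of single mice were not given. Sample titles divide the tumors into 9 labelled Lo and 11 labelled Hi, but the sources used here do not say what Lo and Hi mean. A bulk piece of tumor mixes cell types, so that fewer cells of a type and less RNA per cell cannot be told apart in any of the values below.

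Proteins that enter the ER are folded by chaperones and disulfide isomerases of its lumen, and those that fail are pulled back into the cytosol and degraded. When unfolded proteins build up, the sensors IRE1, PERK and ATF6 are released from the chaperone BiP (encoded by Hspa5) and raise chaperone, degradation and stress genes through the factors XBP1, ATF6 and ATF4. In the cytosol the factor HSF1, which is held inactive by chaperones, raises HSP70, HSP90, HSP40 and small heat shock proteins when proteins there unfold. Secretory cells such as those of the mammary gland keep ER chaperones high even without damage. Splicing of Xbp1 and cleavage of ATF6, the steps that activate these factors, are not visible in counts of whole genes.

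Gene counts summed to 38765682 in the shallowest tumor and 65465755 in the deepest. A locus over a ribosomal RNA gene took 6.29% to 27.7% of these counts, 18.4% ± 6.08 (SD, n = 9) in Lo and 13.7% ± 3.13 (n = 11) in Hi tumors. Luminal epithelial markers (Krt8, Krt18, Krt19, Epcam, Cdh1 and Erbb2) summed to 2544 to 3949 CPM (counts per 1000000 counts of the tumor, after TMM scaling) in every tumor, which fits the labelled tissue. Fibroblast markers summed to 595 to 2231 CPM and skeletal muscle markers to 1.06 to 684 CPM. The plasma cell genes Mzb1 and Tnfrsf17 and the B cell gene Ms4a1 had a count of 0 in some tumors.

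The known switch of the ER response is a DNA element, ERSE, that binds ATF6 and XBP1 together with NF-Y. Its letters, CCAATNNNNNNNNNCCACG, were searched on both strands in the 250 bases before the RefSeq start site (GRCm38.p6). The promoters of 27 genes were matched, 20 of the ER and 7 of the cytosolic list, and those of Hsp90aa1, Hsp90ab1, Hspa8, Hsf1, Hyou1, Manf and Atf6 were not. ERSE was found in 8 of the 20 ER genes and in 0 of the 7 cytosolic genes, against 0.13% of all 27025 genes with a promoter. The 8 genes were Hspa5, Hsp90b1, Calr, Canx, Pdia6, Dnajc3, Creld2 and Syvn1, and Hsp90b1 held it at 2 places. The windows are shown because they hold the element for these 8 genes, and the other 12 ER promoters searched lacked its letters. They are read 5′ to 3′ in the direction of the motif, with the fixed letters of the motif in capitals.
Hspa5 (chr2:34772020-34772048, + strand): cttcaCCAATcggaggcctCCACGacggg
Hsp90b1, distal (chr10:86705633-86705661, - strand): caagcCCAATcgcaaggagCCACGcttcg
Hsp90b1, proximal (chr10:86705528-86705556, + strand): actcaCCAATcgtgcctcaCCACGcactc
Calr (chr8:84847070-84847098, + strand): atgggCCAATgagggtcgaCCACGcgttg
Canx (chr11:50325795-50325823, - strand): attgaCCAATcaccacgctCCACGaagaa
Pdia6 (chr12:17266486-17266514, + strand): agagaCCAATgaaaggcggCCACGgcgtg
Dnajc3 (chr14:118937822-118937850, + strand): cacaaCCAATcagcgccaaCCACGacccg
Creld2 (chr15:88819515-88819543, - strand): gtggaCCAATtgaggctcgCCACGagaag
Syvn1 (chr19:6046527-6046555, + strand): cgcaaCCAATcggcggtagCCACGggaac

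The related element ERSE-II is ATTGG and CCACG with any 1 base between them. Searched on both strands, it was found in Herpud1 only among the 27 genes, and in 0.037% of all genes with a promoter. Herpud1 is shown because no other gene of the 27 held this form.
Herpud1 (chr8:94386368-94386396, + strand): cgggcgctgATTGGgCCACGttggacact

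Of the other letters searched on both strands, the XBP1 core TGACGTG was found in Hspa5 and in 1.85% of all genes with a promoter. The ATF4 element TGATGNAA was found in Herpud1 and in 3.91% of all genes with a promoter. A heat shock element was searched as GAA and TTC in turn for 3 units with any 2 bases between units. It was found in none of the 27 genes and in 0.514% of all genes with a promoter. These matches describe the letters of these windows and are not measured binding sites.

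All 34 genes were expressed in all 20 tumors, the lowest count being 355 for Ddit3. Per kilobase of listed gene length (RPKM), the most abundant was Hsp90ab1, the constitutive cytosolic HSP90, at 469 ± 45.8 (SD, n = 20). It was followed by chaperones of the ER lumen. Hsp90b1 (GRP94) had 372 ± 49.9 RPKM and Hspa5 had 327 ± 51.8. Calr (calreticulin), which holds glycoproteins while they fold, had 320.2 ± 29.3 RPKM, and the disulfide isomerase Pdia3 had 295 ± 34.1. From Hsp90b1 to Pdia3, neighbors in this order differed by less than 1 SD. Xbp1 stood highest of the factors, between 101 and 203 RPKM. The 5 lowest levels were those of Hspa1a, Dnaja1, Ddit3, Hsph1 and Atf6. Hspa1a, an inducible HSP70, had 8.99 ± 2.12 RPKM, and the HSP40 gene Dnaja1 had 8.86 ± 1.11. Ddit3 (CHOP), which promotes death under long ER stress, had 8.54 ± 1.83. Hsph1 (HSP110), a nucleotide exchange factor for HSP70, had 7.93 ± 2.15, and these 4 levels lay within 1 SD of each other. Atf6 had the lowest level at 5.71 ± 0.697. Counts of Ddit3 are less certain, since it overlaps the gene Mars, and the genes over it had 335% of its counts.

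**Figure D1:**
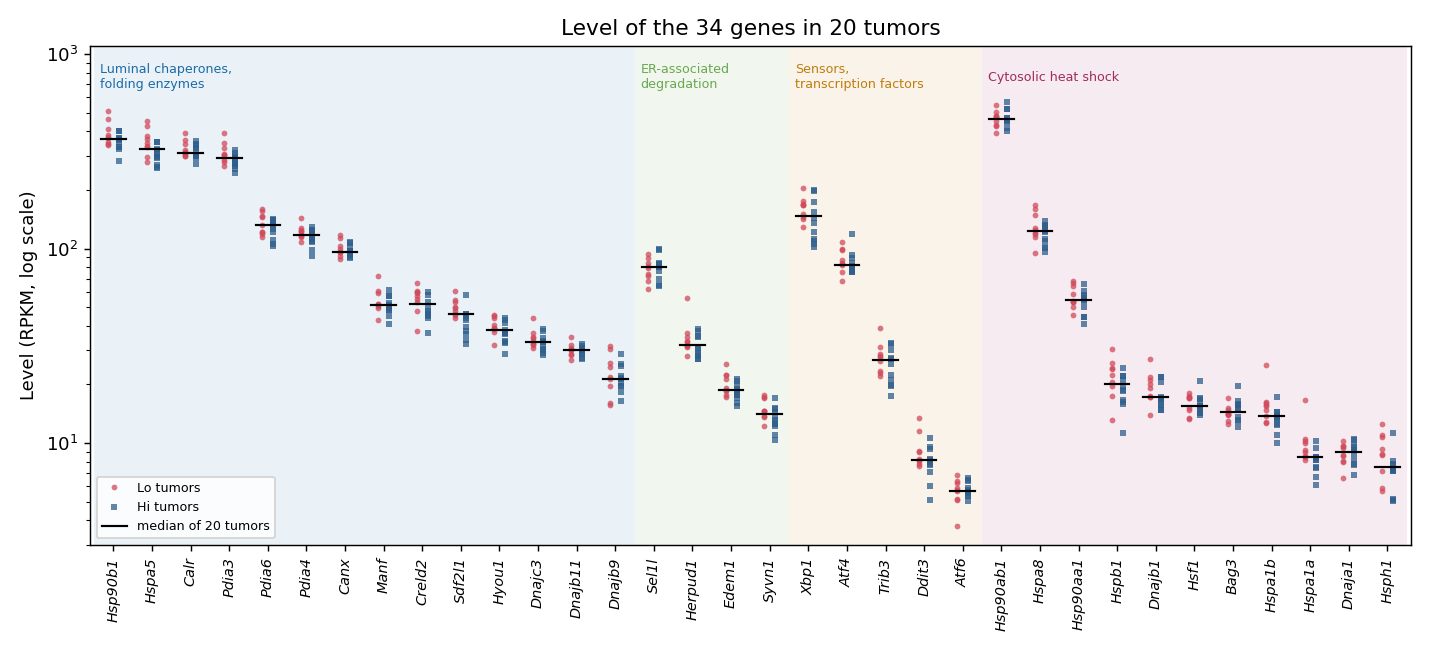
Level of each of the 34 genes (RPKM, log axis) in 9 Lo tumors (circles) and 11 Hi tumors (squares), grouped by list, with the median of the 20 tumors as a black line. ER chaperones and Hsp90ab1 stand highest, from 295 RPKM for Pdia3 to 469 RPKM for Hsp90ab1, while Atf6, Hsph1, Ddit3, Dnaja1 and Hspa1a lie between 5.71 and 8.99 RPKM on average.

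The levels varied little between tumors. The SD of log2 CPM over the 20 tumors had a median of 0.19 over the 23 ER genes and 0.22 over the 11 cytosolic genes, against 0.25 over all 18883 genes tested. An SD under that of the median gene was found for 19 of the 23 ER genes and 7 of the 11 cytosolic genes. The genes compared were not matched for level, and the part of level in this difference was not tested. Among the steadiest was Dnajb11, a co-chaperone of BiP, which ranged from 86.9 to 114 CPM with a median of 97.4 CPM, 1.31-fold from lowest to highest. Canx (calnexin) ranged 1.33-fold, Calr and Hsp90ab1 each 1.44-fold. Hspa5 ranged from 1096 CPM in Hi 8 to 1919 CPM in Lo 4, 1.75-fold.

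The widest ranges belonged to Hspa1a (2.72-fold), Hspb1 (2.70-fold), Ddit3 (2.63-fold), Hspa1b (2.51-fold) and Hsph1 (2.49-fold). The small heat shock protein gene Hspb1 (HSP25) went from 11.6 CPM in Hi 4 through a median of 20.8 to 31.3 CPM in Lo 4. Hsph1, on chr5:149614287-149636376 (mm10), had the largest SD of log2 CPM of the 34 genes, 0.39, and 70.1% of all genes tested had a smaller one. Its levels ran from 35.3 CPM in Hi 4 through a median of 52.7 to 87.8 CPM in Lo 9. For Ddit3, the extremes were 8.74 CPM in Hi 6 and 23 CPM in Lo 8.

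Single tumors stood out for whole groups of genes. Lo 4 had the highest level of 12 of the 23 ER genes, and all 14 luminal chaperones and folding enzymes were above their own median there, by a median of 0.37 on the log2 scale. All 14 were also above their median in Lo 2 and Hi 5, by smaller medians of 0.163 and 0.113. Hi 4 and Hi 8 each had the lowest level of 5 ER genes, and the luminal genes lay at a median of -0.21 in both. Of the 14 luminal genes, 0 were above their median in Hi 4. The cytosolic genes did not follow in each of these tumors. In Hi 8 their median deviation was 0.13, in Lo 4 it was 0.09 and in Hi 4 it was -0.21. In Lo 2 it was 0.24 and in Hi 5 it was -0.04. Lo 11 was different again. It had the highest level of Herpud1, Trib3, Dnajb9, Hspa1a, Hspa1b and Dnajb1, while its luminal genes lay at a median of 0.04. There Hspa1a reached 49.1 CPM, Hspa1b 70.6 CPM and Herpud1 129 CPM.

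Over the 20 tumors the luminal chaperones and folding enzymes varied together. The median Pearson's r of log2 CPM was 0.58 over their 91 pairs, of which 90 were positive, against a median of -0.004 over all pairs of genes tested. Without Lo 4 it was 0.428. Over the 253 pairs of the 23 ER genes the median r was 0.35 (0.242 without Lo 4), over the 55 pairs of the 11 cytosolic genes it was 0.14 (0.0694 without Hi 4, 0.079 without Lo 11), and over the 253 pairs between the lists it was 0.19. These values describe 20 tumors that share a scaling of the counts, and genes that share reads are counted as separate points. Within the groups, with each group centred on its own mean, they were 0.535 for the luminal, 0.277 for the ER and 0.0819 for the cytosolic genes and 0.148 between the lists. With total counts in place of TMM scaling, the medians were 0.678 for the luminal genes and 0.1525 for all pairs of genes.

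**Figure D2:**
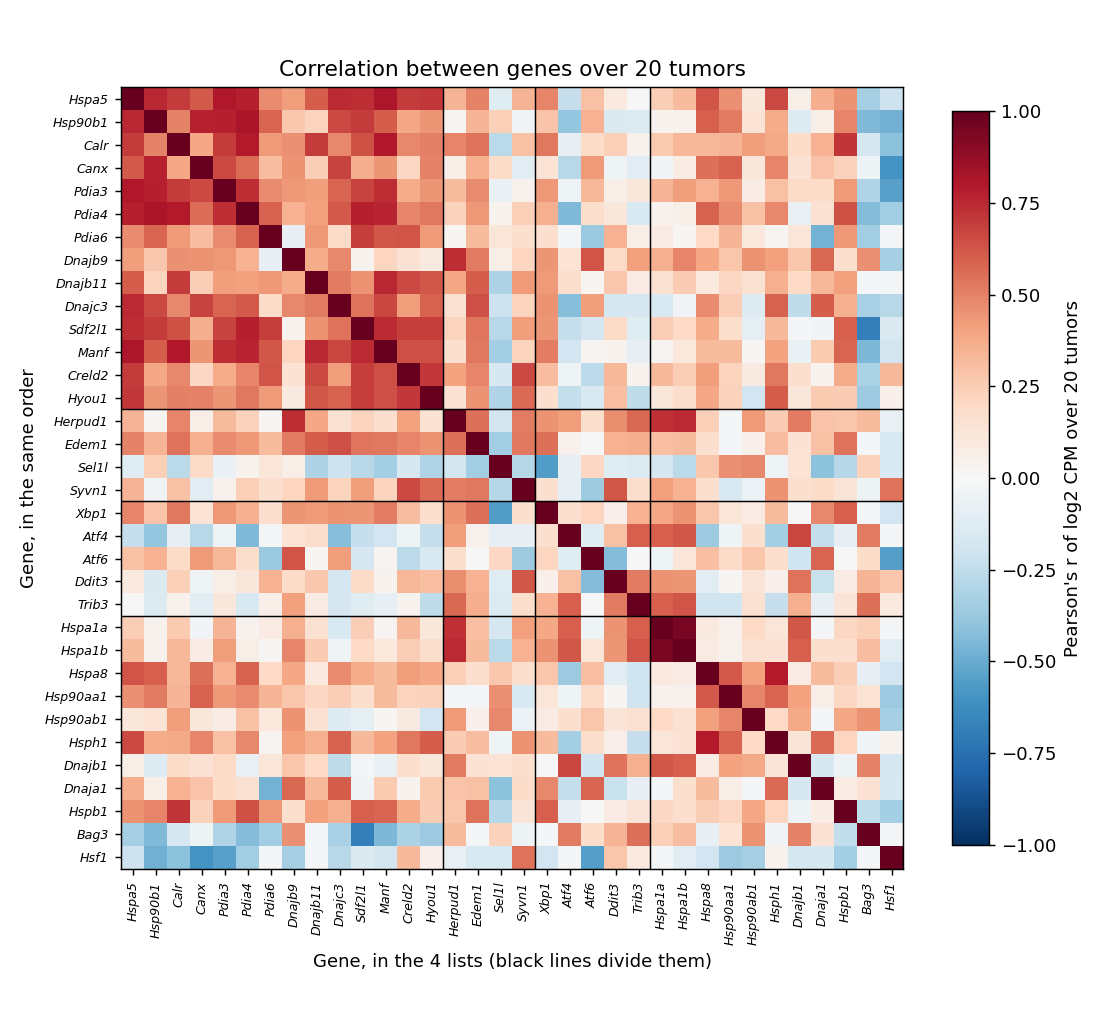
Pearson's r of log2 CPM over the 20 tumors for every pair of the 34 genes, from blue (-1) to red (1), with black lines between the lists. The luminal genes form a red block (median r = 0.58), while the cytosolic genes split into small groups (median r = 0.14) and Hsf1, Bag3, Sel1l and Atf4 are mostly blue against the luminal genes.

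With Hspa5, the 13 other luminal genes had a median r of 0.70, from 0.41 for Dnajb9 to 0.81 for Manf. For the 5 sensors and factors the median r was 0.10, from -0.23 for Atf4 to 0.49 for Xbp1, which lay above Dnajb9 and Pdia6 (0.472) of the luminal genes. Hsf1, the gene of the heat shock factor itself, had a negative r with 12 of the 14 luminal genes (median -0.24, lowest -0.60 with Canx) and with 9 of the 10 other cytosolic genes (median -0.168). These counts of signs were not tested. Bag3, which links HSP70 to autophagy, had a negative r with 13 of the 14 luminal genes (median -0.33), the lowest being -0.68 with Sdf2l1. Sel1l, the scaffold of the ER degradation complex, had negative r with 9 of the 14 luminal genes and with the 3 other degradation genes.

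A second set, chosen after the matrix was seen, crossed the lists. Herpud1, which organizes ER degradation, the factor Atf4 and its target Trib3 varied with Hspa1a, Hspa1b and the HSP40 gene Dnajb1. All 15 pairs of these 6 genes were positive with a median r of 0.60, while with the luminal genes their median r was 0.08. Of those 84 r with the luminal genes, 56 were positive. Herpud1 had a positive r with all 14 luminal genes (median 0.23, highest 0.74 with Dnajb9). Without Lo 11 the median r within the set was 0.41. Among the cytosolic genes, Hsph1, Hspa8 and Hsp90aa1, also picked after the matrix was seen, had r from 0.58 to 0.79 between them. They were not set apart from the ER genes. Their highest r with an ER gene was 0.66 for Hsph1 and 0.63 for Hspa8, both with Hspa5, and 0.59 for Hsp90aa1 with Canx.

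For 10 pairs of genes, r and Spearman's rho were tested over the 20 tumors by permutation, adjusted over the 10 pairs. Hspa5 and Hsp90b1, the partner chaperones of the ER lumen, had r = 0.753 (permutation test, adjusted p = 0.000467) and rho = 0.674 (adjusted p = 0.00387). Their r was 0.654 within Lo, 0.755 within Hi and 0.601 without Lo 2 and Lo 4, the 2 tumors farthest from the median of Hspa5. Hspa5 also varied with Hsph1 of the cytosol, with r = 0.661 (permutation test, adjusted p = 0.00407) and rho = 0.711 (adjusted p = 0.00237). That r was 0.601 within Lo, 0.574 within Hi and 0.684 without the same 2 tumors. Hspa5 and Xbp1 had r = 0.489 (permutation test, adjusted p = 0.0404) and rho = 0.501 (adjusted p = 0.0437), but within Hi r was 0.297, within Lo 0.624, and without the 2 tumors it was 0.422.

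The death-linked gene Ddit3 did not follow Hspa5 detectably. Their r was 0.101 (permutation test, adjusted p = 0.749) and rho 0.165 (adjusted p = 0.538), with r = -0.176 within Lo and -0.047 within Hi. Ddit3 and Trib3 had r = 0.519 (permutation test, adjusted p = 0.0319) and rho = 0.600 (adjusted p = 0.0122), with 0.749 within Lo, 0.294 within Hi and 0.621 without Hi 6 and Lo 8. For Atf4 and Trib3, r was 0.596 (permutation test, adjusted p = 0.0108) and rho 0.468 (adjusted p = 0.055). It was 0.710 within Lo and 0.516 within Hi, and 0.377 without Hi 8 and Lo 11.

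Among the cytosolic pairs, Hsph1 and Hspa8, the constitutive HSC70, had r = 0.792 (permutation test, adjusted p = 0.0003) and rho = 0.797 (adjusted p = 0.00025). Within Lo it was 0.879, within Hi 0.626 and without Hi 3 and Lo 9 0.761. Hsph1 and Dnajb1 had r = 0.132 (permutation test, adjusted p = 0.724) and rho = 0.221 (adjusted p = 0.432), with r = -0.021 within Lo, 0.073 within Hi and 0.232 without the same 2 tumors. Hsph1 and Hsf1 had r = 0.0363 (permutation test, adjusted p = 0.879) and rho = -0.0812 (adjusted p = 0.733), with 0.094 within Lo, -0.029 within Hi and 0.019 without those 2 tumors. Hspa1a and Hspa1b, neighbors on chr17 at 34969190 to 34972156 and 34956436 to 34959238 (mm10), had r = 0.949 (permutation test, adjusted p = 0.0001) and rho = 0.866 (adjusted p = 0.0002). Within Lo r was 0.942, within Hi 0.928 and without Hi 3 and Lo 11 0.879. These 2 genes are near-identical: 56.5% of the 100-base stretches of Hspa1a and 49.9% of those of Hspa1b occur in another gene, the other of the 2 among them, so that their separate counts are uncertain.

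**Figure D3:**
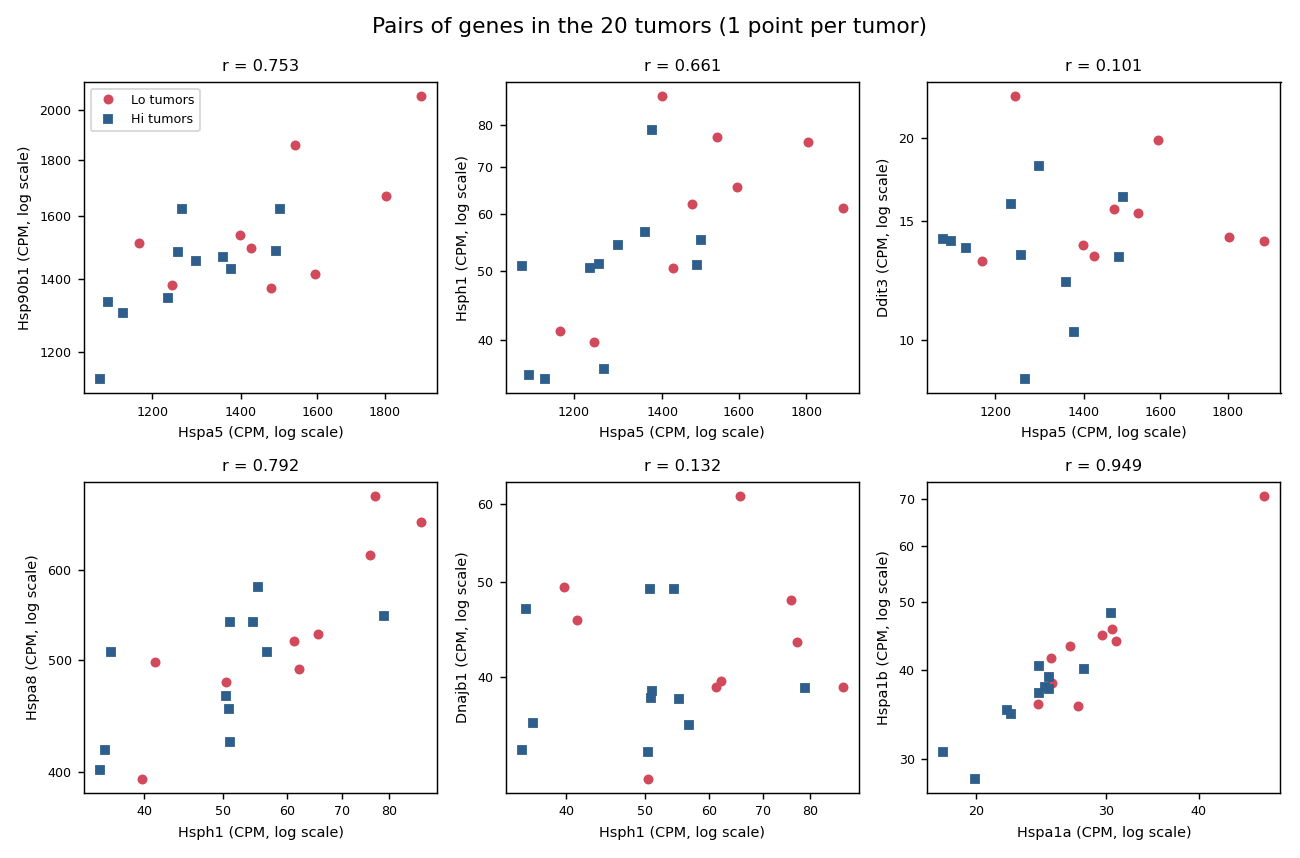
Level of 6 pairs of genes in each of the 20 tumors (CPM, log axes, 1 point per tumor, circles for Lo and squares for Hi), with Pearson's r of log2 CPM above each panel. Hspa5 rises with Hsp90b1 (r = 0.753) and Hsph1 (r = 0.661), r is 0.101 with Ddit3, and Lo 11 stands alone at the top right for Hspa1a and Hspa1b.

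To ask which genes follow the ER response, every gene was fitted against the log2 CPM of Hspa5 over the 20 tumors, and the slope is the log2 change per 1 unit of log2 CPM of Hspa5. At an adjusted p under 0.05 (edgeR's quasi-likelihood test, Benjamini-Hochberg over 18882 genes), 0 genes were called (0%) and 1451 had an unadjusted p under 0.05 (7.68%). Slopes were positive for 50% of all genes at any p and for 4.15% at that unadjusted p, against 15 of the 22 other ER genes and 4 of the 11 cytosolic genes. With DESeq2, 22 genes were called, 6 of them among the 34. The median slope was 0.54 over the 13 other luminal genes, 0.36 over the 4 degradation genes, 0.11 over the 5 sensors and factors and 0.38 over the 11 cytosolic genes, against 0.00 over all genes.

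All 13 of the other luminal genes had a positive slope with an unadjusted p under 0.05, and none passed adjustment in edgeR. Manf, a secreted factor kept in the ER by BiP, went from 144 CPM in Hi 4 through a median of 179.9 to 255 CPM in Lo 4. Its slope was 0.70 (standard error 0.129, unadjusted p = 1.73e-05, adjusted p = 0.124, edgeR), and its adjusted p was 0.000982 with DESeq2. Sdf2l1, which works with BiP on misfolded proteins, ranged from 35.8 CPM in Hi 8 through 50.7 to 67 CPM in Lo 4. Its slope was 0.80 (standard error 0.174, adjusted p = 0.233, edgeR). Pdia3 had a slope of 0.58 (standard error 0.128, adjusted p = 0.233, edgeR) over levels of 770.3 CPM in Hi 8, a median of 922 and 1233 CPM in Lo 4. The 3 genes had their highest level in the same tumor, Lo 4, which also had the highest Hspa5. Creld2 had a slope of 0.71, Hsp90b1 0.64, Hyou1 (GRP170) 0.57, Dnajb9 0.54, Dnajc3 (p58IPK) 0.52, Pdia4 0.51, Calr 0.42, Pdia6 0.37, Canx 0.32 and Dnajb11 0.25. All 13 slopes were below 1. Counts of Manf, Hsp90b1 and Pdia6 are less certain, since the genes that overlap them had 68.5%, 43.6% and 33.6% of their counts.

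Of the degradation genes, Edem1, which extracts mannose-trimmed glycoproteins, had a slope of 0.42 (standard error 0.162, unadjusted p = 0.0171). Herpud1 had 0.40 (standard error 0.235, unadjusted p = 0.102), Syvn1 (HRD1, the ubiquitin ligase) 0.31 and Sel1l -0.12. In the list of sensors and factors, Xbp1 had a slope of 0.63 (standard error 0.27, unadjusted p = 0.0291, edgeR). Atf6 had 0.24, Ddit3 0.11, Trib3 0.02 and Atf4 -0.22, all 4 with an unadjusted p of 0.203 or more. Slopes on Hspa5 were also split by the promoter element. The 7 other genes with ERSE had a median slope of 0.42 (6 with an unadjusted p under 0.05), and the 12 ER genes without it had 0.41 (7 with such a p). Slopes were 0.31 to 0.71 with and -0.22 to 0.80 without the element, and the median r with Hspa5 was 0.702 and 0.452. The split also divides the lists. With ERSE, all but Syvn1 were luminal genes, while those without it included Herpud1, Edem1, Sel1l, Xbp1, Atf4, Ddit3 and Trib3. The part of the list in these values was not tested.

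Of the cytosolic genes, Hsph1 had the steepest slope of the 34 on Hspa5, 1.18 (standard error 0.306, unadjusted p = 0.000843, adjusted p = 0.254, edgeR). Hspb1 had 0.78 (adjusted p = 0.509), Hspa8 0.65 (adjusted p = 0.386) and Hsp90aa1, the inducible HSP90, 0.42 (adjusted p = 0.616). Hspa1a (0.38), Hspa1b (0.40) and Dnaja1 (0.28) had unadjusted p of 0.129 or more, and Hsp90ab1 and Dnajb1 were at 0.07, Hsf1 at -0.16 and Bag3 at -0.26. Part of the sequence of Hspb1, Hsp90aa1, Hspa8 and Dnaja1 occurs in other genes (44.0%, 38.0%, 28.5% and 16.6% of 100-base stretches), and none of Hsph1. Counts of Dnaja1 and Hspa1a are also less certain, since genes that overlap them had 66.5% and 35.6% of their counts.

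Without Lo 4, 9 ER and 2 cytosolic genes had a positive slope with an unadjusted p under 0.05, against 15 and 4. Of all genes, 6.8% had such a p in either direction, and the shares that follow also count both directions. Within the 9 Lo tumors these counts were 4 and 1, with 3.2% of all genes at such a p, and within the 11 Hi tumors 8 and 3, with 6.29% of all genes. A test of the difference between the Lo and Hi slopes called 0 genes with edgeR (767 with an unadjusted p under 0.05, 4.06%). Among the 34 genes only Sdf2l1 had an unadjusted p under 0.05 in it, with a Lo minus Hi slope of -0.89 (standard error 0.37, unadjusted p = 0.0265, adjusted p = 0.999). Proliferation markers moved with Hspa5 as well, Top2a with a slope of 0.65 and Ccnb1 with 0.67 (2 of 4 markers with an unadjusted p under 0.05), and the summed level of the 4 was 364 to 579 CPM in Lo and 264 to 551 CPM in Hi tumors. Of the 5 milk protein genes, 2 had a positive slope (highest 0.52), and the median of the 5 was -1.37. Wap was the lowest at -3.20 and the only 1 with an unadjusted p under 0.05 (0.0222, edgeR). The 5 summed to 6470 to 13641 CPM. The part of these markers in the slopes was not tested.

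**Figure D4:**
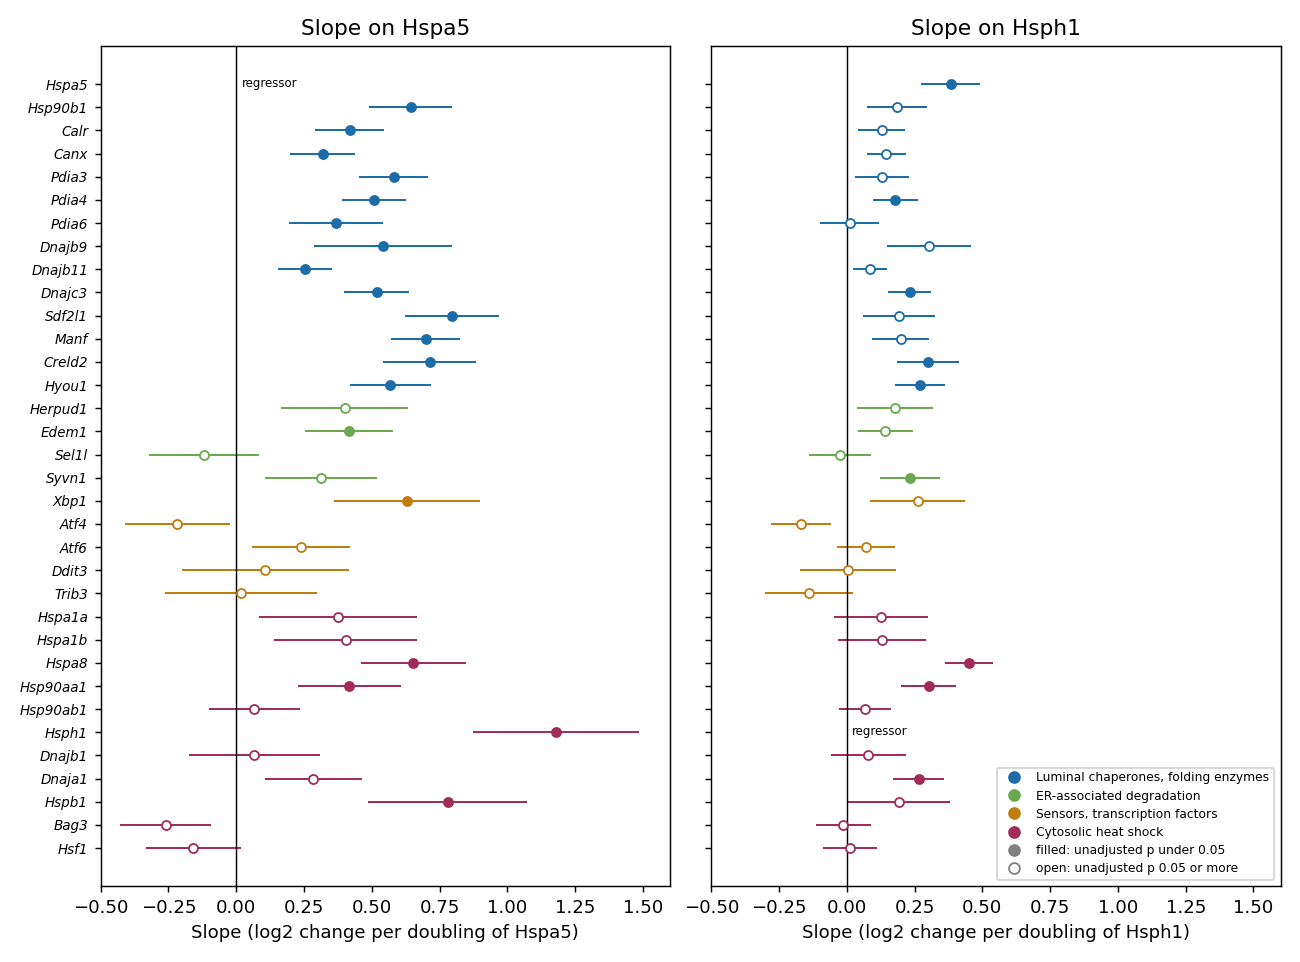
Slope of each gene on the log2 CPM of Hspa5 (left) and Hsph1 (right) over 20 tumors, as log2 change per doubling, with bars of 1 standard error and filled points at an unadjusted p under 0.05. On Hspa5 all 13 other luminal genes are filled and positive, and Hsph1 is farthest right at 1.18, while on Hsph1 the gene farthest right is Hspa8 at 0.45.

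The same fit was made against Hsph1, a cytosolic gene that HSF1 is known to raise and that has no near-identical copy. Hsph1 had a median r of 0.173 with the other cytosolic genes and 0.405 with the luminal genes, so that it does not stand for the cytosolic list as a whole. With edgeR, 1 of 18882 genes was called (0.0053%) and 1064 had an unadjusted p under 0.05 (5.63%). The gene called was not one of the 34. This was Chordc1, a co-chaperone of HSP90 from the list of other pathway genes, which ranged from 32 CPM in Lo 7 through a median of 38.8 to 52.7 CPM in Lo 9. Its slope was 0.49 (standard error 0.0649, adjusted p = 0.0026, edgeR). The call held when any 1 tumor was left out (adjusted p from 0.000636 to 0.0351 over 20 fits), but without Hi 3 and Lo 9, the tumors farthest from the median of Hsph1, its adjusted p was 0.179 with a slope of 0.46, and with the replicate number as a block it was 0.679 with a slope of 0.32.

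Of the 34 genes, positive slopes on Hsph1 with an unadjusted p under 0.05 were found for 6 of 23 ER genes and 3 of the 10 other cytosolic genes, against 2.71% of all genes. Hspa8 came closest to a call, with a slope of 0.45 (standard error 0.088, unadjusted p = 3.94e-05, adjusted p = 0.151, edgeR) over levels of 395 CPM in Lo 8, a median of 508 and 695 CPM in Lo 3. Its adjusted p was 0.00278 with DESeq2. Hsp90aa1 had a slope of 0.30 and Dnaja1, a co-chaperone of HSP70, 0.27. Among the ER genes, Hspa5 had 0.38 (standard error 0.109, unadjusted p = 0.00187, adjusted p = 0.653, edgeR), Creld2 0.30, Hyou1 0.27, Syvn1 0.23, Dnajc3 0.23 and Pdia4 0.18. The classic heat shock genes Hspa1a and Hspa1b had 0.13 each, Dnajb1 0.08 and Hsp90ab1 0.07, with unadjusted p of 0.435 or more. The median slope was 0.13 over the cytosolic genes and 0.19 over the luminal genes. The basal marker Krt14 had a slope of 3.35 on Hsph1 (unadjusted p = 0.0121), and its part was not tested.

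Whether a gene followed Hspa5 or Hsph1 more closely was tested with both in 1 model, each scaled to an SD of 1, as the difference of the slopes. With edgeR, 0 genes were called (0%), and 1130 had an unadjusted p under 0.05 (5.98%). Positive differences at that p, toward Hspa5, were found for 5 of the 22 other ER genes and 0 of the 10 other cytosolic genes, against 3.52% of all genes. The 5 were Sdf2l1 (0.29), Pdia3 (0.24), Pdia6 (0.23), Manf (0.23) and Hsp90b1 (0.21), each with an adjusted p of 0.796. All 13 other luminal genes had a positive difference (median 0.13), as did 51.8% of all genes, while 3 of 10 cytosolic genes did (median -0.06). Hspa8 was at -0.11 and Hsp90aa1 at -0.08. The 2 reporters were themselves correlated (r = 0.661), which limits how well 1 model separates them. All 4 skeletal muscle markers moved with this contrast (differences of 2.29 to 2.83, unadjusted p of 0.0326 to 0.0482, edgeR), as did 2 of 5 basal markers, Krt14 at -4.69 and Krt5 at -3.09. The basal list did not move as a whole, since 3 of its 5 markers were positive (median of the list 0.04, highest 0.35). Krt5 had a count of 0 in some tumors. The milk protein gene Csn3 was at 0.29 (1 of 5) and the endothelial gene Tek at 0.48 (1 of 4). The part of these markers in the contrast was not tested.

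Between the tumors labelled Lo and Hi, edgeR called 0 of 18883 genes (0%), and 1045 had an unadjusted p under 0.05 (5.53%). Of the 34 genes, 5 had such a p, all with a higher mean in Lo, against 3.5% of all genes with a higher level in Lo at that p. The lowest adjusted p of the 34 was 0.701. A positive Lo minus Hi value was found for 29 of the 34 genes, 21 of 23 ER and 8 of 11 cytosolic, against 50.3% of all genes, and the median was 0.13 for the ER and 0.15 for the cytosolic list. Since the luminal genes vary together, these are not independent counts. Single markers of cell types and of proliferation also had an unadjusted p under 0.05 (edgeR), as did 5.53% of all genes, and none was called. All 4 proliferation markers had a positive Lo minus Hi value (Ccnb1 0.32, unadjusted p = 0.023, edgeR). The basal marker Krt14 was at -3.23 (unadjusted p = 0.00632, edgeR), while 2 of the 5 basal markers were positive. The T cell gene Cd3e was at -0.84 (unadjusted p = 0.0302, edgeR). Levels were low, since the 4 T cell markers summed to 0.302 to 2.35 CPM and Cd3d and Cd2 had a count of 0 in some tumors. The part of these markers in the differences was not tested.

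In Lo tumors Hspa5, at chr2:34771970-34777547 (mm10), had 1173 CPM at lowest, a median of 1475 and 1919 CPM at highest, and in Hi tumors 1096, 1265 and 1499 CPM. The groups overlapped, with 4 Lo tumors above the highest Hi tumor and 3 Hi tumors below the lowest Lo tumor. The log2 difference was 0.23 (standard error 0.0891, unadjusted p = 0.0158, adjusted p = 0.752, edgeR). Sdf2l1 had 48.5, 55 and 67 CPM in Lo and 35.8, 47.7 and 63.6 CPM in Hi tumors, with 7 Hi tumors below every Lo tumor. Its log2 difference was 0.26 (standard error 0.0876, unadjusted p = 0.00719, adjusted p = 0.701, edgeR). Syvn1 ran from 58.4 to 83.8 CPM in Lo and from 49.2 to 81.1 CPM in Hi tumors, a log2 difference of 0.17 (standard error 0.0841, unadjusted p = 0.0497, adjusted p = 0.895, edgeR). Syvn1 overlaps Mrpl49, and the genes over it had 49.2% of its counts.

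Of the heat shock genes, Hspa1a had 24.3, 27.5 and 49.1 CPM in Lo and 18.1, 24.3 and 30.4 CPM in Hi tumors. Its log2 difference was 0.32 (standard error 0.113, unadjusted p = 0.0103, adjusted p = 0.704, edgeR), and 0.20 without Lo 11. Hspa1b had 35.6, 43.3 and 70.6 CPM in Lo and 28.1, 37.7 and 48.2 CPM in Hi tumors, with a log2 difference of 0.26 (standard error 0.108, adjusted p = 0.837, edgeR) that was 0.15 without Lo 11. Hsph1 had 39.8, 62.1 and 87.8 CPM in Lo and 35.3, 51 and 78.8 CPM in Hi tumors, a log2 difference of 0.30 with an unadjusted p of 0.0569. The share of the ribosomal RNA locus also differed in mean between Lo and Hi. With that share as a term the differences were 0.24 for Hspa5, 0.28 for Sdf2l1, 0.28 for Hspa1a and 0.24 for Hspa1b, with unadjusted p from 0.0114 to 0.065, and 0.20 for Syvn1.

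**Figure D5:**
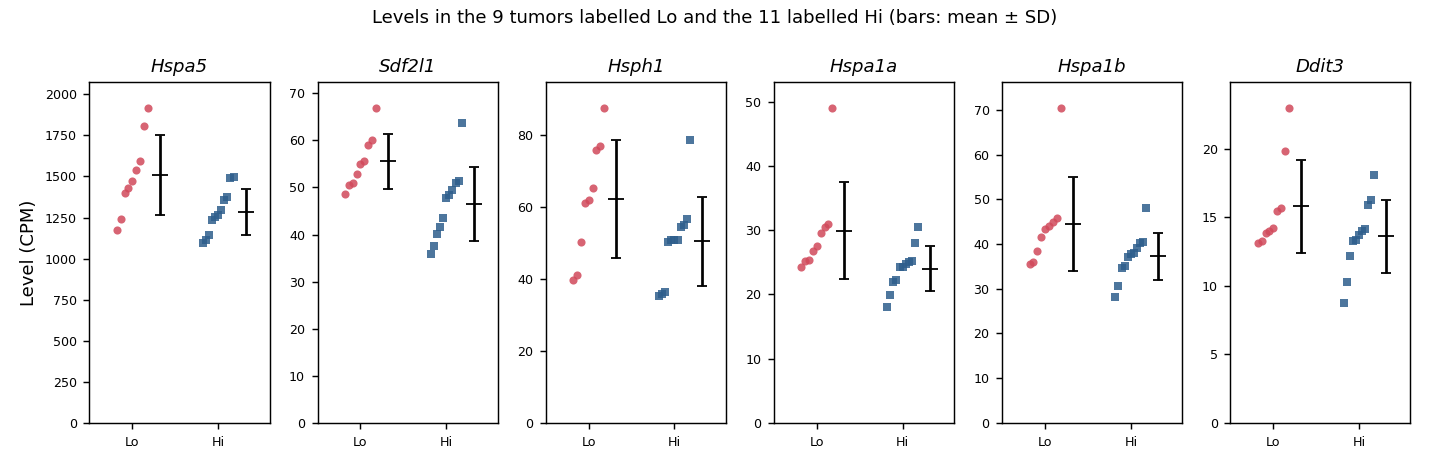
Levels (CPM) of 6 of the genes in the 9 Lo tumors (circles) and the 11 Hi tumors (squares), sorted within a group, with the mean ± SD as a bar beside them. The groups overlap for each gene, and 1 Lo tumor, Lo 11, is far above the others for Hspa1a (49.1 CPM) and Hspa1b (70.6 CPM).

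Of 75 further genes of the same pathways, none was called against Hspa5 or between Lo and Hi, and Chordc1 was the only one called against Hsph1. With Hspa5, 7 had a positive and 1 a negative slope at an unadjusted p under 0.05, against 4.15% and 3.54% of all genes. On the ER side these were the oxidase Ero1lb, which feeds disulfide bonds to the isomerases (slope 0.71, adjusted p = 0.238, edgeR), and the retrotranslocation genes Derl2 (0.26) and Derl3 (0.86). On the cytosolic side they were the HSP90 partners Stip1 (0.33), Ahsa1 (0.31), Chordc1 (0.59) and Cacybp (0.69), and the small heat shock gene Cryab at -0.60. With Hsph1, 7 were positive, among them Chordc1 (0.49), Cacybp (0.48), Stip1 (0.28) and Fkbp4 (0.19) of the HSP90 co-chaperones and Hspd1 (0.26) of the mitochondrion, and 2 were negative, Cryab (-0.45) and Ppp1r15a (-0.35), against 2.71% positive and 2.93% negative of all genes.

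Derl3 is also a plasma cell gene, and of the 5 plasma and B cell markers tested it was the only one with a positive slope at that p, while Igj was at -1.78. Between Lo and Hi, 2 of the 75 were positive and 1 negative at that p, against 3.5% and 2.04% of all genes. Derl3 had a log2 difference of 0.50 (adjusted p = 0.6, edgeR), Edem2 of 0.19 and Fkbp14 of -0.21. Of the 12 other genes of the ATF4 branch, 4 had a positive slope on Hspa5, with a median of -0.06, and 0 had an unadjusted p under 0.05. The 4 genes Ern1, Eif2ak3, Mbtps1 and Mbtps2 had a median slope of -0.07 on Hspa5 and the 8 genes of the cytosolic chaperonin a median of 0.12, again with 0 at that p.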

How the data were processed

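RNA of 20 tumors (TruSeq mRNA libraries, paired-end, trimmed to 100 bases) was aligned to mm10 with TopHat2 2.0.12 within MapRseq and counted with featureCounts 1.4.4, per the submitters' processing notes and methods. The strand setting and annotation release are not given in the sources used here, so overlapping, antisense and near-identical genes are uncertain. The authors deposited raw counts per gene, with no tumors pooled, and all 20 columns were used. CPM was scaled by TMM, and log2 CPM had 2 added as prior count. RPKM is CPM per kilobase of the listed gene length. Genes passed filterByExpr and were fitted with edgeR 4.0.16 (quasi-likelihood, R 4.3.3) over 20 tumors, adjusted over all genes tested, with DESeq2 1.42.0 as an alternative. Correlations used 100000 permutations (two-sided). Scripts were tested on simulated data. The members and lists, with the 10 pairs and the other pathway genes, were chosen with earlier results of these data known, and all 34 members could be named. Alternatives were other scalings, filters, group terms and tumor subsets, and, chosen after seeing the data, the ribosomal RNA share as a term and each tumor left out of the fits. Chordc1 is from the list of other pathway genes. The set around Herpud1 and the group of Hsph1, Hspa8 and Hsp90aa1 were chosen after the values were seen. P-values measure the spread between tumors of different mice.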

Additional observations from a re-analysis of the deposited data

Results flagged for a closer look

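Among the 34 genes, tested in the group of 9 Lo tumors only (the 11 Hi tumors were not tested, since only groups of 4 to 10 were), 4 had a highest or lowest tumor farther from the others than the critical value of Dixon's test allows. Chance would give about 1.7 of 34. Dnajc3, an inhibitor of PERK, had 229 CPM in Lo 4, against 160.5 to 192 CPM in the other 8 Lo tumors and 147 to 199.6 CPM in the Hi tumors. In Lo 11, Herpud1 had 129 CPM against 65.2 to 85.9 CPM in the other 8 Lo tumors, Hspa1a had 49.1 CPM against 24.3 to 30.9 CPM and Hspa1b had 70.6 CPM against 35.6 to 45.8 CPM. The highest Hi tumor had 89.7 CPM of Herpud1, 30.4 CPM of Hspa1a and 48.2 CPM of Hspa1b, so that Lo 11 lay above all other 19 tumors for these 3 genes. Hspa1a and Hspa1b share sequence and are not independent.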

How the results depend on the processing

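No gene of the 34 was called between Lo and Hi, or in the difference of the slopes on Hspa5 and Hsph1, under any alternative run. Against Hspa5, DESeq2 called 6 of the 34 (Manf, Sdf2l1, Pdia3, Dnajc3, Pdia4 and Hsp90b1) and a term for the ribosomal RNA share called 1 (Manf). Against Hsph1, DESeq2 and no filter on low counts each called 1 (Hspa8). The cause was not tested. Over all genes, DESeq2 called 22 against Hspa5 and 17 against Hsph1, and no filter called 10 and 48, with 79 in the difference of the slopes. For the ER genes with an unadjusted p under 0.05 and a positive slope on Hspa5 (15), there were 4 in Lo only and 8 in Hi only, both with fewer tumors. For the cytosolic genes (4), there were 1 in Lo only and 2 with Lo or Hi as a term. Of all genes, counted in either direction, 3.2% had such a p in Lo only, 6.29% in Hi only and 6.11% with that term. On Hsph1 the ER genes (6) numbered 3 with Lo or Hi as a term, 0 in Lo only, 2 in Hi only and 10 after Hi 3 and Lo 9, farthest from the Hsph1 median, were left out. The shares of all genes in these Hsph1 fits, in either direction, were 4.71%, 2.08%, 2.46% and 5.28%, in that order. In the difference of the slopes the ER genes (5) numbered 3 without the 2 farthest tumors and 1 each in Lo only and Hi only, and the cytosolic genes (0) numbered 1 without the 2 farthest tumors. There the shares of all genes were 4.42% without the 2 farthest tumors, 3.55% in Lo only and 5.93% in Hi only.

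Leaving out each tumor in turn, these counts ranged from 9 to 15 (ER) and 2 to 6 (cytosolic) on Hspa5, 3 to 8 and 3 to 3 on Hsph1, 4 to 7 and 0 to 1 in the difference, and 2 to 5 and 1 to 4 between Lo and Hi. The share of all genes, in either direction, ranged from 6.15% to 8.95% on Hspa5 and from 3.87% to 9.4% on Hsph1. It ranged from 3.99% to 9.82% in the difference and from 3.9% to 6.36% between Lo and Hi. The lowest counts on Hspa5, 9 and 2, were without Lo 4, and the 3 on Hsph1 without Lo 2 or Hi 4. Between Lo and Hi, 5 ER genes had such a p without Lo 6, Lo 7 or Hi 5, and the cytosolic count was 4 without Lo 7 or Lo 8 and 1 without Lo 11. The median r of the luminal genes ranged from 0.428 to 0.608, of the ER genes from 0.242 to 0.380, of the cytosolic genes from 0.0694 to 0.184 and between the lists from 0.151 to 0.225.

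The replicate number as a block, over 9 pairs that share only a number, gave 7 ER and 3 cytosolic genes with an unadjusted p under 0.05 and a positive value between Lo and Hi, 5 and 0 on Hspa5 and 2 and 2 on Hsph1, with 0 of the 34 called in each. Of all genes, 4.64%, 5.16% and 7.37% had such a p in these fits, in either direction. The slope of Syvn1 on Hsph1 turned to -0.0914 with the block, from 0.23. Deviations of same-numbered tumors from their group means had r of -0.418 to 0.208, 3 of 9 over 0.1, and 1 of the 9 Lo tumors correlated best with its own number, so the numbers were not taken to pair the tumors. The lowest count of the 34 genes was 355, and the slopes rest on 20 tumors over a 1.75-fold range of Hspa5.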

Other observations

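Genes outside the lists that followed the reporters, chosen after their values were seen, included loci that overlap or resemble the chaperone genes. With Hspa5, 1810014B01Rik had a slope of 0.69 (standard error 0.136, adjusted p = 0.141, edgeR), and it overlaps Hsp90b1. With Hsph1, Gm8355 had a slope of 0.47 (standard error 0.0965, adjusted p = 0.151, edgeR), and it shares 100-base stretches with Hspa8. Both are uncertain for that reason. Also with Hsph1, the splicing regulators Tra2a and Tra2b had slopes of 0.49 and 0.34 (standard errors 0.0961 and 0.0675, adjusted p = 0.151 for each, edgeR). Gimap1os and Gm28053 had negative slopes on Hsph1, -1.77 and -1.58, at the same adjusted p. Outside the lists, the smallest p with Hspa5 belonged to Car11 (-2.02), Dlgap1 (-1.96) and Btbd17 (-9.09), each with an adjusted p of 0.124 (edgeR). Parp6 followed with a slope of 2.08 (adjusted p = 0.141, edgeR).

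None of the 4 mitochondrial genes or the 8 chaperonin genes had an unadjusted p under 0.05 on Hspa5 or between Lo and Hi, with medians of the Lo minus Hi value of 0.03 and -0.01.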
